A study of Mus musculus with 2 samples.

Results

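The genes that make, carry and break down cholesterol were followed in total RNA from the left cerebral cortex of female B6CASTF1/J mice aged 14 days. B6CASTF1/J is the F1 cross between C57BL/6J and CAST/EiJ, and the deposited values do not separate the alleles. The list holds 37 genes of the pathway, given by symbol, and all 37 were found among the 55536 annotated genes. They fall into 8 genes of early synthesis, 10 of late synthesis, 8 of regulation, 4 for the lipoprotein carrier and its receptors, 3 for efflux, and 4 for intracellular handling and turnover. The series consists of 1 group of 2 libraries, biological replicate 2 and biological replicate 1, each made from 300 ng of RNA with ERCC spike-ins, which are synthetic RNAs added in known amounts. No treatment, genotype or age was compared, the labels give both libraries the same donor entry, and whether a library pools several mice is not stated in them. The difference between the libraries is given as replicate 2 over replicate 1, and every test of it compares these libraries, not mice.

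The brain is largely cut off from the lipoproteins of the blood and makes its own cholesterol. The early steps join acetyl-CoA units into mevalonate and on to squalene, and the late steps close squalene into lanosterol and trim it to cholesterol. Oligodendrocytes use cholesterol for myelin in the weeks after birth, astrocytes pass it to neurons on particles that carry apolipoprotein E, and neurons dispose of an excess as 24-hydroxycholesterol. When sterol is scarce, SCAP escorts SREBP transcription factors from the endoplasmic reticulum to be cut and activated, INSIG proteins hold SCAP back when sterol is plentiful, and LXR receptors turn on export when oxysterols build up.

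SREBP2 is known to act on the promoters of the synthesis enzymes together with the factors NF-Y and Sp1, so the bases before the start sites were searched for their motifs. RefSeq windows on GRCm38.p6, the assembly also called mm10, were at hand for 31 of the 37 genes, and the 250 bases before the start were read on both strands. Fdps, Fdft1, Sqle, Abcg1, Abcg4 and Npc1 had no window and were not searched. The windows of Hmgcs1 and Mvk, with 3 and 5 NF-Y boxes, are shown as examples. Those of Hsd17b7 and Msmo1, which also held 3, are not shown. Acat2 is shown because it was the only one of the 15 synthesis enzymes with a window that held none. Capitals mark the letters CCAAT or, on the other strand, ATTGG, and only bases outside annotated exons are printed. The Hmgcs1 stretch is chr13:119690101-119690350 on the plus strand, the Mvk stretch chr5:114444061-114444268 on the plus strand and the Acat2 stretch chr17:12960748-12960975 on the minus strand.
Hmgcs1: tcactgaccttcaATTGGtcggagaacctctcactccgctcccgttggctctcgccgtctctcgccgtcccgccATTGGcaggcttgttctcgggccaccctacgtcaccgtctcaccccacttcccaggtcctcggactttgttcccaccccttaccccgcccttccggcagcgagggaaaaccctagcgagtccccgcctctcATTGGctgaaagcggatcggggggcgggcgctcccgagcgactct
Mvk: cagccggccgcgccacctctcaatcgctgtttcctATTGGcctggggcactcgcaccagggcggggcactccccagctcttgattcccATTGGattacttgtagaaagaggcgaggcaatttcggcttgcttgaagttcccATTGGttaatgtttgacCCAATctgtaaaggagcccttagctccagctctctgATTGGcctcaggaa
Acat2: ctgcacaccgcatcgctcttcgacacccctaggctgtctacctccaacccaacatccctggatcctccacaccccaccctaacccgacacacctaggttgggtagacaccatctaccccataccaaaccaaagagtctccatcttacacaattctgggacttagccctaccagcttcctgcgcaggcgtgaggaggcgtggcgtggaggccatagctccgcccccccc

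The SREBP motif searched for was TCACNCCAC, a core of the sterol response element. Hmgcs1 was the only one of the 31 genes with a match, which began at position -137 from the RefSeq start. It lies in chr13:119690194-119690242 on the plus strand, where capitals mark the match.
Hmgcs1 site: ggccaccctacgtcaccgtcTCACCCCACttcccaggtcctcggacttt

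The NF-Y box CCAAT was found before 14 of the 15 synthesis enzymes with a window (93.3%), before 9 of the other 16 cholesterol genes (56.3%) and before 4075 of 10066 protein-coding genes detected in this cortex (40.5%). Hmgcs1, Hsd17b7, Insig2, Msmo1 and Mylip held 3 boxes each, and Apoe, Lrp1, Lrp8, Abca1, Scap, Nr1h2 and Nr1h3 held none. The Sp1 box GGGCGG was found before 14 of the 15 synthesis enzymes (93.3%), before 11 of the other 16 genes (68.8%) and before 65.2% of the detected protein-coding genes, against 35.4% of all 27025 genes in the table. The SREBP motif was found before 126 of the 10066 detected protein-coding genes (1.252%) and before 331 of the 27025 genes (1.22%). A direct repeat of AGGTCA with 4 bases between the copies, an exact form of the repeat that LXR receptors bind, was found before none of the 31 genes. It was found before 4 of the 27025 genes and before 0 of the 10066 detected ones. A motif this rare cannot tell whether the 31 genes hold LXR sites. Where several windows existed for a gene, a match in any of them was counted, no motif includes another, and a match of letters is not a bound site.

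**Figure D1:**
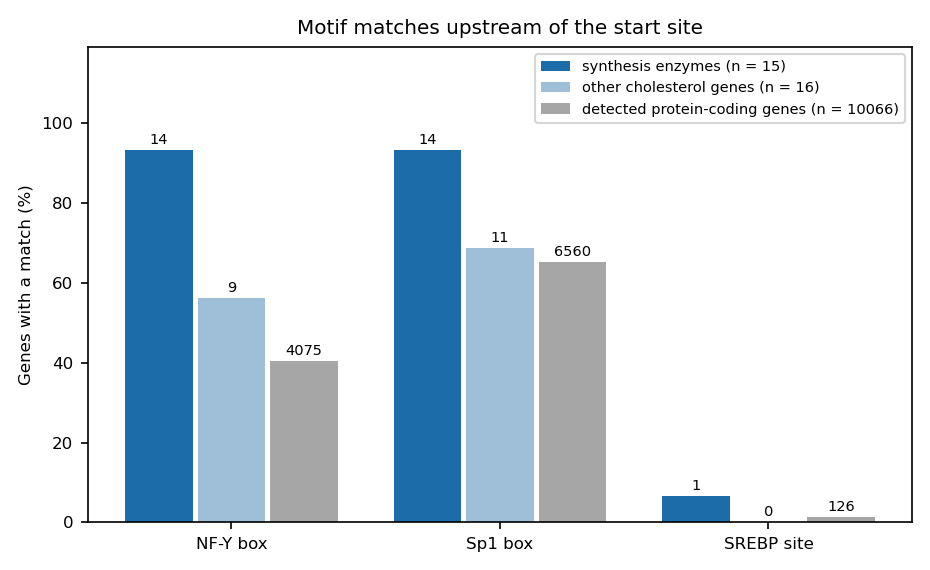
Share of genes, in percent, with at least 1 match of each motif in the 250 bases before a RefSeq start, for the synthesis enzymes, the other cholesterol genes and the protein-coding genes at 1 TPM or more in both libraries; the numbers on the bars count the genes with a match. The NF-Y box was before 14 of 15 synthesis enzymes and before 40.5% of the detected protein-coding genes.

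Gene counts summed to 32013997 in replicate 2 and 33362704 in replicate 1, and the spike-ins took 0.361% of the counts in replicate 2 and 0.359% in replicate 1. Levels are given in TPM, transcripts per 1000000, which divides by length so that genes can be compared within a library. They come from the gene tables unless the second transcript table, an estimate the authors made from the reads directly, is named. The 37 genes summed to 2359 TPM in replicate 2 and 2331 in replicate 1. All 37 reached 1 TPM in both libraries, and 27 lay above the median of the 12959 detected protein-coding genes, which was 16.18 TPM.

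Early synthesis had a median level of 29.1 ± 0.509 TPM over its 8 genes (SD of the library medians, n = 2) and was led by Hmgcs1, the synthase that makes HMG-CoA. Hmgcs1 (chr13:119690379-119708260, plus strand, mm10) stood at 215 TPM in both libraries, above 97.5% of the detected protein-coding genes. Fdps, which makes farnesyl diphosphate, had 48.1 TPM in replicate 2, against 50.3 in replicate 1. Acat2, the cytosolic thiolase that starts the pathway, stood at 38.2 TPM in replicate 2 and 36.1 in replicate 1, so that Hmgcs1 was 5.78-fold above it, with a log2 ratio of 2.53 ± 0.06 (SD, n = 2). Fdft1, the squalene synthase, was close to Acat2 with 36.3 TPM in replicate 2 and 37.5 in replicate 1. The enzymes between these, the mevalonate kinase Mvk, the phosphomevalonate kinase Pmvk, the decarboxylase Mvd and the isomerase Idi1, ranged from 15.1 to 22.7 TPM in either library. The flanks of the mevalonate segment thus had higher levels than its middle in both libraries.

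Late synthesis had a median of 26.5 ± 0.173 TPM over 10 genes (SD, n = 2), and no gene there stood out as Hmgcs1 did. Sqle, the squalene epoxidase that is a known control point, had 47.1 TPM in replicate 2 and 43.6 in replicate 1. Msmo1, the C4-methylsterol oxidase, had 43.8 TPM in replicate 2 and 45.6 in replicate 1. In the gene tables it could not be told from Sqle beyond the spread of the libraries. The second transcript table put Msmo1 above Sqle in both libraries. There, Msmo1 had 77.3 TPM in replicate 2 and 79.9 in replicate 1, and Sqle 64.0 in replicate 2 and 58.9 in replicate 1. Cyp51, the lanosterol demethylase, had 29.3 TPM in replicate 2 and 32.2 in replicate 1, and the last reductase measured, Dhcr7, had 28.1 TPM in replicate 2 and 27.3 in replicate 1. Lss, the lanosterol synthase, and Sc5d, the sterol desaturase, lay within 25.6 to 27.1 TPM as gene totals. Transcripts not annotated as protein-coding held 69.6% of Lss in the first transcript tables and 73.4% in the second. They held 0% of Sc5d in both, so these genes were alike in total but not in coding transcripts. The sterol reductase Tm7sf2, the dehydrogenase Nsdhl and the isomerase Ebp ranged from 15.01 to 21.8 TPM. Hsd17b7, the ketosteroid reductase, had the lowest gene total of all 18 synthesis enzymes with 9.36 TPM in replicate 2 and 8.28 in replicate 1.

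Regulators spanned the widest range by fold, with a median of 24.4 ± 0.534 TPM over 8 genes (SD, n = 2). Srebf2, which encodes the SREBP that drives cholesterol synthesis, had 92.1 TPM in replicate 2 and 86.9 in replicate 1. Srebf1, whose products act mainly on fatty acid synthesis, had 16.8 TPM in replicate 2 and 22.7 in replicate 1. Srebf2 was thereby 4.57-fold above Srebf1, with a log2 ratio of 2.19 ± 0.36 (SD, n = 2), and 3.51-fold above it in the second transcript table. Scap, the escort protein, had 53.8 TPM in replicate 2 and 42.9 in replicate 1. Insig1, an SREBP target that retains SCAP, had 36.2 TPM in replicate 2 and 37.9 in replicate 1 and lay 1.84-fold above its relative Insig2 with 19.4 TPM in replicate 2 and 20.7 in replicate 1. Nr1h2, which encodes LXR-beta, had 28.7 TPM in replicate 2 and 26.99 in replicate 1, while Nr1h3, which encodes LXR-alpha, had 1.07 TPM in replicate 2 and 1.06 in replicate 1 from 25 counts in replicate 2 and 26 in replicate 1. The LXR genes thus differed by 24.0-fold with 0.1 TPM added, or 14.0-fold with 1 TPM added, the widest ratio among the 14 pairs compared under either, and Nr1h3 was the lowest of all 37 genes. Mylip, an LXR target that degrades lipoprotein receptors, had 12.5 TPM in replicate 2 and 11.2 in replicate 1.

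The lipoprotein group had the highest median, 92.9 ± 5.09 TPM over 4 genes (SD, n = 2). Apoe (chr7:19696109-19699188, minus strand, mm10), the main apolipoprotein of the brain, had 965 TPM in replicate 2, against 974 in replicate 1, above 99.8% of the detected protein-coding genes. Hmgcs1, the next of the list, lay 2.17 ± 0.01 lower on the log2 scale (SD, n = 2). Lrp1, a large endocytic receptor, had 135 TPM in replicate 2 and 124 in replicate 1. Lrp8, the apolipoprotein E and Reelin receptor ApoER2, had 58.4 TPM in replicate 2 and 54.9 in replicate 1, and Vldlr, the other Reelin receptor, had 33.1 TPM in replicate 2 and 31.1 in replicate 1. The order Lrp1, Lrp8, Vldlr was the same in both libraries, with Lrp1 2.28-fold above Lrp8 and Lrp8 1.76-fold above Vldlr. These are gene totals, which include transcripts not annotated as protein-coding. Such transcripts held 47.9% of Lrp8 in the first transcript tables and 49.8% in the second. They held 10.1% and 13.1% of Vldlr and 37.4% and 23.0% of Lrp1, in the same order of tables. The receptors were not compared on coding transcripts alone, and their order there can differ.

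Among the exporters, Abcg4 had 32.1 TPM in replicate 2 and 28.6 in replicate 1, Abcg1 had 19.7 TPM in replicate 2 and 21.6 in replicate 1, and Abca1, which loads lipid onto apolipoproteins, had 10.98 ± 0.0283 TPM (SD, n = 2). Abcg4 lay 1.47-fold above Abcg1, and Abcg1 lay 1.87-fold above Abca1. The same order of the exporters held in the second transcript table.

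Cyp46a1 (chr12:108334381-108362234, plus strand, mm10), the 24-hydroxylase through which neurons turn cholesterol over, had 122 TPM in replicate 2 and 120 in replicate 1, above 94.0% of the detected protein-coding genes. Soat1, which esterifies cholesterol for storage, had 17.3 TPM in replicate 2 and 14.3 in replicate 1, so that Cyp46a1 was 7.64-fold above it. The lysosomal exporters Npc1, with 15.5 TPM in both libraries, and Npc2, with 14.4 TPM in replicate 2 and 14.8 in replicate 1, lay close together. The log2 ratio of Npc2 to Npc1 was -0.09, which turned to 0.10 in the second transcript table. It was the only one of the 14 pairs to do so, and the other 13 were larger than 2 SD with the same sign in both tables.

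**Figure D2:**
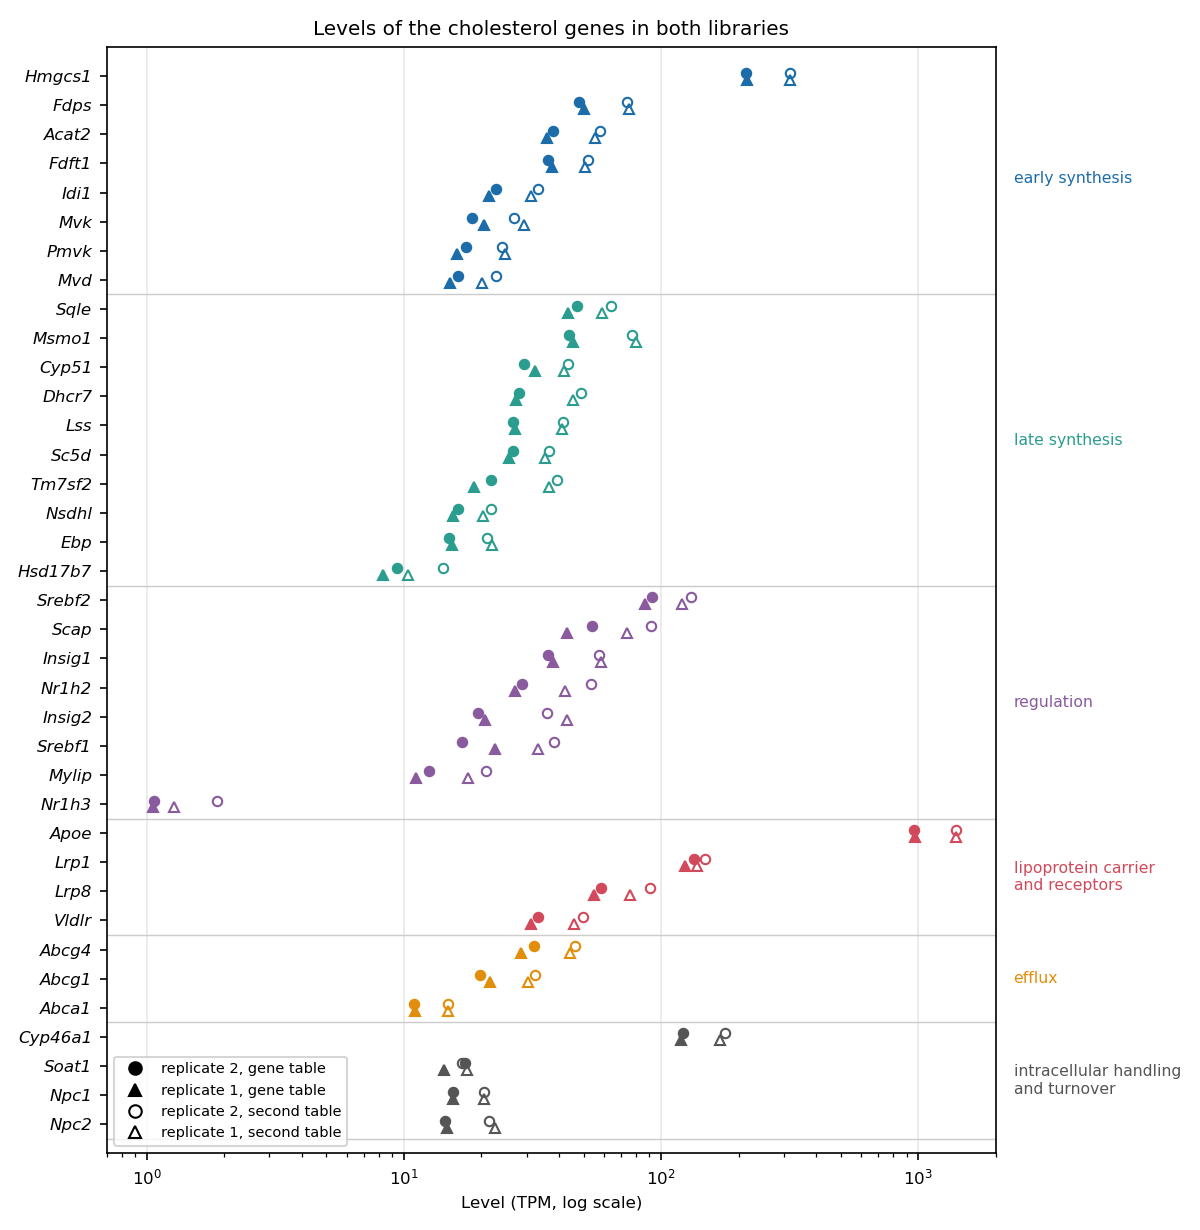
Level of each cholesterol gene in TPM on a log axis, by step, with filled marks for the gene tables and open marks for the second transcript table, circles for replicate 2 and triangles for replicate 1. Apoe lies highest at 965 TPM in replicate 2 and 974 in replicate 1. Nr1h3 lies lowest at 1.07 in replicate 2 and 1.06 in replicate 1. Hmgcs1, Srebf2, Apoe, Abcg4 and Cyp46a1 lead their steps in both libraries. Sqle and Msmo1 share the lead of late synthesis in the gene tables, and Msmo1 leads it in the second transcript table.

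In the full order of the 37 levels, 13 of the 36 steps from a gene to the next were larger than 2 SD of the libraries with the same sign in both, and 11 of these also kept their order in the second transcript table. The top of the list was well separated, with Apoe above Hmgcs1, Hmgcs1 above Lrp1, Cyp46a1 above Srebf2 and Srebf2 above Lrp8. Lrp1 and Cyp46a1 did not differ beyond their spread. Nor did Lrp8, Fdps, Scap, Sqle and Msmo1 from their neighbours within that run. With 2 libraries an exact permutation test cannot give a p below 0.5, so levels and pairs are a description.

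Between the libraries, the cholesterol genes differed little. On the log2 scale of counts per 1000000 with 0.5 added, 36 of the 37 lay within 0.2 of equality, and the median was -0.03. The median size of the difference was 0.072, against 0.124 over all 18887 genes tested and 0.083 over the 8219 of them with 1000 counts or more over both libraries. The exception was Pmvk, 0.21 lower in replicate 2 with a counting SE of 0.11, which did not pass the test. In the two-sided exact binomial test on counts with Benjamini-Hochberg adjustment over all genes, 8 of the 37 passed at an adjusted p under 0.05, against 20.3% of all genes. Of these, 3 were higher in replicate 2 (background 8.88%) and 5 were lower (background 11.4%). Each of these counts was near the share over all genes. At a ratio of 1.5-fold or more none of the 37 passed, against 3.25% of all genes (2.19% higher and 1.05% lower in replicate 2). With an assumed dispersion of 0.01 in edgeR's exact test none of the 37 passed, against 0.529% of all genes higher and 0.434% lower.

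The genes that passed as higher in replicate 2 were Lrp8, Vldlr and Soat1. Lrp8 had 5132 counts in replicate 2 and 4748 in replicate 1 (log2 ratio 0.11 ± 0.03, counting SE; adjusted p = 0.00102 in the exact binomial test). Vldlr had 3991 counts in replicate 2 and 3653 in replicate 1, a log2 ratio of 0.13 ± 0.03 (exact test, adjusted p = 0.00104). Soat1 had 1122 counts in replicate 2 and 991 in replicate 1, a log2 ratio of 0.18 ± 0.06 (exact test, adjusted p = 0.0254), and did not pass in the second transcript table (adjusted p = 0.137).

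The genes that passed as lower in replicate 2 were Apoe, Hmgcs1, Fdft1, Insig1 and Abcg1. Apoe had 20234 counts in replicate 2 and 21386 in replicate 1 with a log2 ratio of -0.08 ± 0.01 (exact test, adjusted p = 5.43e-07). Hmgcs1 had 14150 counts in replicate 2 and 14844 in replicate 1, a log2 ratio of -0.07 ± 0.02 (exact test, adjusted p = 0.000665). Fdft1 had 1812 counts in replicate 2 and 2059 in replicate 1, a log2 ratio of -0.18 ± 0.05 (exact test, adjusted p = 0.000872). These are the abundant carrier, the HMG-CoA synthase and the enzyme that forms squalene. Insig1 had 1816 counts in replicate 2 and 2000 in replicate 1, a log2 ratio of -0.14 ± 0.05 (exact test, adjusted p = 0.0199). Abcg1 had 1719 counts in replicate 2 and 1918 in replicate 1, a log2 ratio of -0.16 ± 0.05 (exact test, adjusted p = 0.00808). With libraries scaled by their total counts, 7 of the 37 genes were higher in replicate 2 and 1 lower, against 14.5% higher and 6.06% lower over all genes. With spike-in scaling 6 were higher and 1 lower, against 13.6% higher and 6.51% lower over all genes. Fdft1 still passed as lower, while Apoe, Hmgcs1, Insig1 and Abcg1 did not, with adjusted p from 0.11 to 0.767 in the exact test. Under both of these scalings Sqle, Tm7sf2 and Lrp1 passed as higher in replicate 2 in addition.

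**Figure D3:**
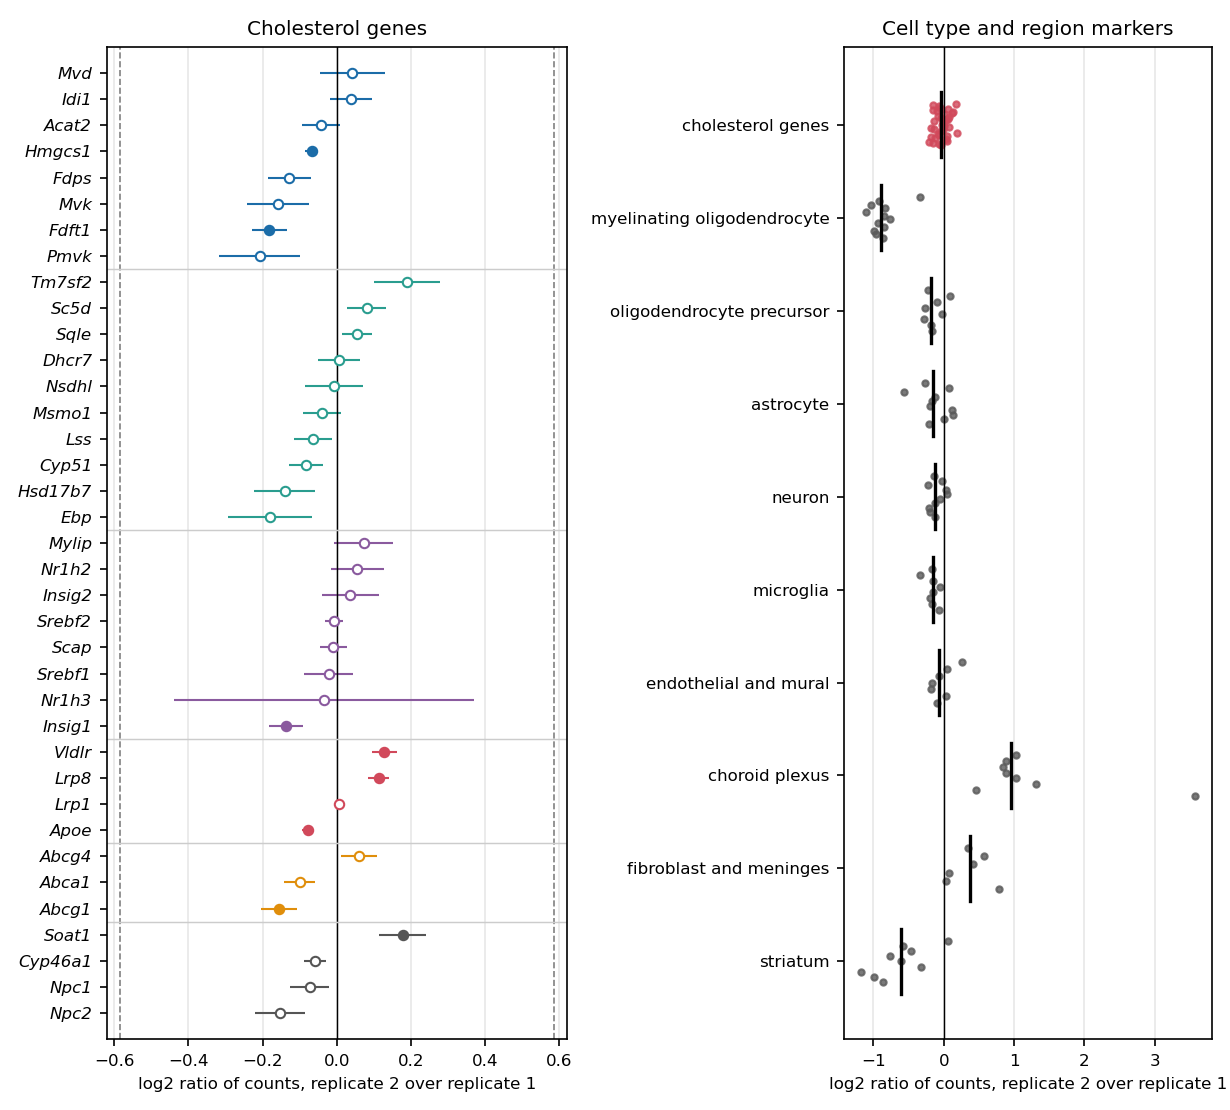
Log2 ratio of counts, replicate 2 over replicate 1. Left, each cholesterol gene with its counting SE, filled where it passed the test, colours by step in the order of synthesis, regulation, lipoprotein, efflux and turnover, dashed lines at 1.5-fold; right, each gene of the cholesterol list and of the marker lists as a point, with the list median as a bar. All cholesterol genes lie inside the dashed lines, while the myelinating oligodendrocyte markers have a median of -0.89 and the choroid plexus markers one of 0.96.

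Markers of myelinating oligodendrocytes, choroid plexus and striatum had larger ratios between the libraries than the cholesterol genes. Myelinating oligodendrocyte markers summed to 1375 TPM in replicate 2, against 2461 in replicate 1, with a median log2 ratio of -0.89. Of these 12 markers, 11 passed the exact binomial test as lower, against 11.4% of all genes. Mbp, the myelin basic protein gene, had 575 TPM in replicate 2 and 1014 in replicate 1. The 18 synthesis enzymes, measured beside these, had a median of -0.05 and a range from -0.21 to 0.19. In bulk tissue, fewer cells of a type and less RNA per cell cannot be told apart.

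The medians of the remaining marker lists lay on both sides of 0. Markers are called higher or lower here where they passed the exact binomial test. Over all genes 8.88% passed as higher in replicate 2 and 11.4% as lower. These shares were 14.5% and 6.06% with total-count scaling, and 13.6% and 6.51% with spike-in scaling. Choroid plexus markers summed to 139.8 TPM in replicate 2, against 13.1 in replicate 1, with 8 of 8 higher and a median of 0.96, and Ttr, transthyretin, alone had 131 TPM in replicate 2 and 9.86 in replicate 1. Markers of the striatum summed to 200.5 TPM in replicate 2 and 309 in replicate 1, with 8 of 9 lower and a median of -0.61. Astrocyte markers, of which 2 of 10, Aqp4 and Gfap, were higher and 6 lower, had a median of -0.15, neuron markers one of -0.12 with 6 of 10 lower and none higher, and oligodendrocyte precursor markers one of -0.17 with 6 of 8 lower. With total-count or spike-in scaling 2 neuron markers were higher and 6 lower, with a median of -0.06 under the first and -0.07 under the second, and 4 precursor markers were lower. Microglia markers had a median of -0.16 with 4 of 8 lower (1 of 8 with total-count or spike-in scaling), endothelial and mural markers one of -0.07 with Vtn the 1 of 7 higher, and fibroblast markers one of 0.38 with 3 of 6 higher, Dcn, Slc6a13 and Igf2. No marker was at 0 in either library, the neuron markers summed to 4186 TPM in replicate 2 and 4379 in replicate 1, and the part of any of these cells in the cholesterol values was not tested.

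TPM and counts told the difference between the libraries unlike each other for 4 genes, by more than 0.2 on the log2 scale. Srebf1 had 967 counts in replicate 2 and 983 in replicate 1, nearly equal, but its TPM ratio was -0.43 on the log2 scale. Scap had 3185 counts in replicate 2 and 3209 in replicate 1 but a TPM ratio of 0.33. Pmvk and Hsd17b7 were 0.21 and 0.14 lower in replicate 2 by counts and 0.11 and 0.18 higher by TPM. The mean transcript length given in the deposited gene tables moved with this, at 2900 nucleotides in replicate 2 and 2121 in replicate 1 for Srebf1, 2982 in replicate 2 and 3586 in replicate 1 for Scap, 1003 in replicate 2 and 1188 in replicate 1 for Pmvk, and 3188 in replicate 2 and 3796 in replicate 1 for Hsd17b7. For Pmvk, the share of the leading transcript Pmvk-201 was 63.0% ± 29.6 (SD, n = 2), and for Scap that of Scap-201 was 74.5% ± 11.2.

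The leading transcript held most of the TPM of a typical cholesterol gene. Its median share of a gene's TPM was 70.4% in the first transcript tables and 60.4% in the second, against 64.8% in the first and 55.3% in the second over 11679 detected protein-coding genes with 2 or more transcripts. Both tables named the same leading transcript for 27 of the 37 genes (73.0%), against 77.2% of the 11679. Sqle-201, Nsdhl-201, Abca1-201, Idi1-201, Insig1-201 and Cyp46a1-201 each held over 90% of their gene in either table. Abcg1 was split between Abcg1-201 with 68.5% and the short Abcg1-204 of 912 nucleotides with 27.5%. Vldlr was spread over Vldlr-207, Vldlr-208 and Vldlr-202 with 51.9%, 18.5% and 15.6%, and Sc5d over Sc5d-202 with 63.0% and Sc5d-201 with 36.98%.

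Transcripts not annotated as protein-coding held a median of 10.1% of a gene's TPM in the first tables and 9.24% in the second, against 11.2% in the first and 13.7% in the second over the 11679 genes. Lss was the gene with the largest such share on which the tables were close, 69.6% ± 4.26 in the first and 73.4% ± 4.10 in the second (SD, n = 2). The tables placed it differently, for Lss-202 of 352 nucleotides held 31.8% in the first and 0% in the second, while the retained-intron transcript Lss-203 held 9.20% in the first and 51.1% in the second. The coding transcript Lss-201 held 25.7% in the first and 24.6% in the second. In Lrp8, 47.9% ± 1.37 in the first tables and 49.8% ± 1.53 in the second lay outside coding transcripts, mainly on Lrp8-209, annotated for nonsense-mediated decay, with 25.3% in the first and 31.0% in the second. Lrp8-202, the leading coding transcript, held 45.1% in the first and 42.3% in the second. In Lrp1 the share was 37.4% in the first tables and 23.0% in the second, with Lrp1-205, a 679-nucleotide transcript annotated for nonsense-mediated decay, at 15.5% in the first and 17.3% in the second. In Ebp the retained-intron transcript Ebp-202 held 27.8% in the first and 24.8% in the second.

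Across the 37 genes, 49 transcripts of 34 genes held 10% or more of their gene in both libraries and both tables, and Apoe, Mvd and Nr1h3 had no such transcript. Most of those not yet described are coding, and one coding transcript led in several synthesis genes. Cyp51-201 held 80.05% in the first tables and 88.6% in the second, Mvk-201 84.2% and 75.9%, Dhcr7-202 82.7% and 66.4%, Msmo1-201 70.4% and 65.8%, and Hsd17b7-201 69.0% and 72.5% in the same order of tables. Fdft1-201 held 72.97% in the first and 40.9% in the second, and Tm7sf2-201 held 69.4% in the first and 25.1% in the second, so for these genes the share depended on the table. Acat2 was divided between Acat2-201, with 53.6% in the first and 20.03% in the second, and Acat2-204, with 33.7% in the first and 42.3% in the second. The coding transcripts of Ebp were Ebp-201, with 36.3% in the first and 52.4% in the second, and the 526-nucleotide Ebp-203, with 28.8% in the first and 18.5% in the second, and the retained-intron transcript Lss-204 held 17.0% in the first and 13.5% in the second.

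Outside synthesis, the sterol exporters of the lysosome and the large receptor Lrp1 were also led by one coding transcript. Npc1-201 held 82.6% in the first tables and 91.8% in the second, Npc2-201 held 86.4% in the first and 77.7% in the second, and Lrp1-201 held 60.7% in the first and 75.7% in the second. Among regulators, Srebf2-201 held 74.3% in the first and 72.0% in the second beside the 748-nucleotide Srebf2-202 with 14.3% in the first and 17.4% in the second, and Mylip-201 held 77.9% in the first and 70.6% in the second beside Mylip-202 with 22.1% in the first and 29.4% in the second. Shares were lower for Insig2-201, with 59.6% in the first and 46.4% in the second, Srebf1-201, with 32.3% in the first and 24.6% in the second, and Nr1h2-201, with 33.0% in the first and 14.5% in the second. Abcg4 and Soat1 were each divided among several coding transcripts. Abcg4-208 held 37.4% in the first and 52.9% in the second and Abcg4-209 16.96% in the first and 16.8% in the second, while Soat1-207 held 26.2% in the first and 38.97% in the second and Soat1-201 27.4% in the first and 30.95% in the second. Over the transcripts described from Cyp51-201 onward, the SD of the share between the 2 libraries ran from 0.0312 percentage points for Lrp1-201 to 20.04 for Hsd17b7-201. Both of these are from the second table. Pmvk-201, described earlier, had an SD of 29.6 in the first tables and 0 in the second.

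**Figure D4:**
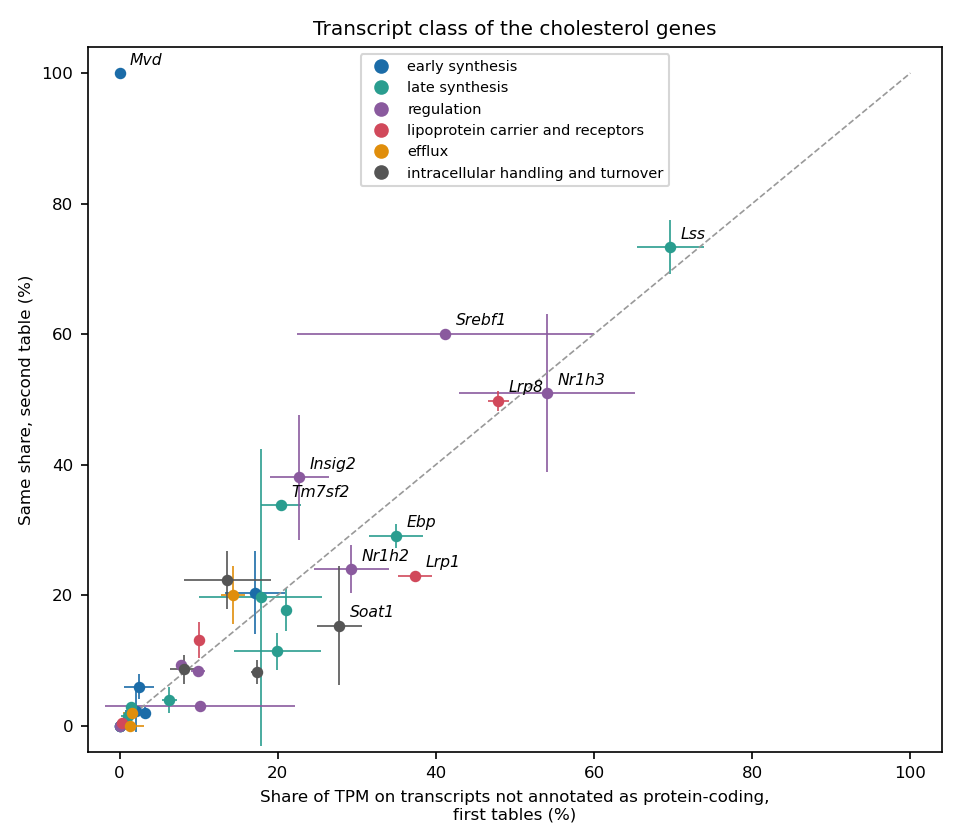
Share of each cholesterol gene's TPM on transcripts not annotated as protein-coding, in percent, in the first transcript tables (x axis) and the second (y axis); points are means of the 2 libraries, bars are 1 SD, and the dashed line marks equal shares. Lss and Lrp8 lie near the line at 69.6% and 47.9% in the first tables, and Mvd lies off it.

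Some assignments were opposite in the tables, and these genes were picked out after their values were seen. Mvd was given wholly to the coding Mvd-201 in the first tables and wholly to Mvd-202, annotated for nonsense-mediated decay, in the second. Apoe was given to Apoe-209 with 89.1% ± 1.43 in the first tables and to Apoe-205 with 94.4% ± 0.880 in the second (SD, n = 2). Fdps-201 held 91.7% in the first and 21.8% in the second, and Fdps-203 held 4.57% in the first and 69.3% in the second. Hmgcs1-202 held 68.5% in the first and 16.3% in the second, and Hmgcs1-201 held 28.2% in the first and 78.6% in the second. For Apoe, Fdps and Hmgcs1 these transcripts are all annotated as coding, and the gene level in the second table was 1.44, 1.52 and 1.47 times that in the gene tables, against a median of 1.47 times over the 37 genes.

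Exons of 11 of the 37 genes overlapped another annotated gene, 8 of them on the opposite strand, and whether the counting used strand is not stated in the labels or files. Partners reached 1 TPM in both libraries for 5 of the 11. Fdft1 shared 774 exonic bases on the opposite strand with Ctsb, which encodes a lysosomal protease. Ctsb had 179 TPM in replicate 2 and 197 in replicate 1. Its counts were whole, at 8467 in replicate 2 and 9757 in replicate 1, as were those of Fdft1. Whether the overlap bears on the level or the difference of Fdft1 was not tested. Cyp51 with Akap9, Srebf1 with Rai1 and Npc1 with Rmc1 overlapped on opposite strands by 166, 109 and 511 bases, and Tm7sf2 with Vps51 on the same strand by 532. Counts of 33 of the 37 genes were whole within 0.005, and those of Acat2, Idi1, Fdps and Tm7sf2 were not.

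Genes next to the pathway were counted from lists of 12 each, and their counts stand against 8.88% of all genes higher in replicate 2 and 11.4% lower, or, with total-count scaling, 14.5% higher and 6.06% lower, and with spike-in scaling 13.6% higher and 6.51% lower. In SREBP processing and sterol sensing, 2 genes were higher in replicate 2 and 1 lower, with a median log2 ratio of 0.02, and with total-count or spike-in scaling 3 were higher and 0 lower. With so few genes these counts lay near the shares over all genes. Pgrmc1, a sterol-binding membrane protein, had 158 TPM in replicate 2, against 133 in replicate 1, and a log2 ratio of counts of 0.19 ± 0.03 (exact test, adjusted p = 7.85e-10), and Gramd1a, a sterol transfer protein, had a ratio of 0.12 ± 0.04. Gramd1b had 73.5 TPM in replicate 2 and 70.4 in replicate 1 and did not pass. In the isoprenoid branches, 1 of 12 was lower, Dhdds of dolichol synthesis, with 30.1 TPM in both libraries and a log2 ratio of counts of -0.14 ± 0.05. That list had a median of -0.01, which was 0.05 with 1 gene higher and 0 lower under total-count scaling and 0.04 with the same counts under spike-in scaling, and Rabggtb, a subunit of a prenyl transferase, had 31.6 TPM in replicate 2 and 30.3 in replicate 1.

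Fatty acid synthesis had 7 of 12 genes lower and 1 higher in replicate 2, against 11.4% lower and 8.88% higher over all genes, with a median of -0.10. With total-count scaling 3 were lower and 3 higher, against 6.06% lower and 14.5% higher over all genes, and with spike-in scaling 4 were lower and 3 higher, against 6.51% lower and 13.6% higher. Scd2, the main desaturase of brain, had 288 TPM in replicate 2, against 309.6 in replicate 1, and a log2 ratio of -0.17 ± 0.01, and Fasn, the fatty acid synthase, had 98.0 TPM in replicate 2 and 99.9 in replicate 1 and a ratio of counts of -0.09 ± 0.02. Acss2, which makes acetyl-CoA from acetate, had a ratio of -0.24 ± 0.06, and Mid1ip1 was the gene higher, with 0.25 ± 0.05.

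Of other sterol handling genes, 2 of 12 were lower and none higher, with a median of 0.003, and these counts were near the 11.4% lower and 8.88% higher over all genes. They were Scarb2, a lysosomal membrane protein with 38.7 TPM in replicate 2 and 44.1 in replicate 1 and a log2 ratio of -0.25 ± 0.03, and the cholesterol ester hydrolase Nceh1 with 57.1 TPM in replicate 2 and 62.1 in replicate 1 and -0.15 ± 0.03. In the list of lipoprotein partners and the Reelin pathway, 2 of the 11 genes tested were higher and 4 lower, with a median of -0.005. Clu, the apolipoprotein also called clusterin, had 343 TPM in replicate 2 and 370.1 in replicate 1 and a ratio of -0.17 ± 0.02, Sorl1, a sorting receptor, had 64.8 TPM in replicate 2 and 72.0 in replicate 1 and -0.22 ± 0.02, and the largest ratios were those of Apod with -0.35 ± 0.08 and the lipoprotein lipase Lpl with -0.24 ± 0.05. The genes higher were Reln, the Reelin ligand, with 0.08 ± 0.02 and its adaptor Dab1 with 0.14 ± 0.04, and the counts of this list were the same with total-count and spike-in scaling. With the assumed dispersion of 0.01 in edgeR's exact test no gene of these 5 lists passed. Among the markers, 11 of the 12 of myelinating oligodendrocytes, 4 of the 8 of choroid plexus and 4 of the 9 of striatum did. Over all genes 0.529% passed as higher in replicate 2 and 0.434% as lower.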

How the data were processed

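Total RNA-seq of 2 libraries was analysed as 1 group. The authors deposited, for each library, a gene table and a first transcript table, both from reads aligned to the transcriptome, and a second transcript table from the unaligned reads, on mm10 with GENCODE M21, per the text deposited with the samples. Expected counts in the deposited tables are estimated reads per feature, not normalised, and were rounded for tests. TPM values were scaled by the authors to 1000000 per table, spike-ins included. The aligner, counter and strand setting were not given in the sources used here.

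Library sizes came from TMM in edgeR 4.0.16 (R 4.3.3). Genes reaching 10 counts in either library were compared by a two-sided exact binomial test with Benjamini-Hochberg adjustment, checked on simulated data (scipy 1.17.1). It takes counting error alone, so intervals and p-values cover no spread between mice. Ratios are log2 of CPM with 0.5 added, and pairs use TPM with 0.1 added. Another 26249 rows that name no gene held 4.84 counts in replicate 2 and 5.00 in replicate 1 and were left out. Alternatives were total-count, spike-in and DESeq2 1.42.0 scaling, other filters, the second table and an assumed dispersion.

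The members and lists were chosen with earlier results of these data known. All members were described, and of each other pathway list the 2 highest genes and the 2 largest ratios among those that passed were named, with Reln, Dab1 and the markers Aqp4 and Gfap added after their values were seen. Values of some single genes of these lists are not reported here. Transcripts with 10% or more in both libraries and tables were named, and some others in addition after their values were seen. Promoters came from RefSeq. The length minus the effective length was 99 in the first tables and 347 in replicate 2 and 341 in replicate 1 in the second, so the tables assume different fragment lengths.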

Additional observations from a re-analysis of the deposited data

How the results depend on the processing

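The counts of cholesterol genes that passed, 3 higher and 5 lower in replicate 2, were 7 and 1 with total-count scaling, 6 and 1 with spike-in scaling, and 0 and 0 with an assumed dispersion of 0.01 in edgeR's exact test. They were 3 and 5 with DESeq2 size factors, without a filter and with 50 counts as the minimum, and 2 and 6 in the second transcript table. Over all genes 1678 were higher and 2152 lower, which became 2733 and 1145 with total-count scaling, 2570 and 1229 with spike-in scaling and 100 and 82 with the dispersion. Total-count and spike-in scaling moved the median of all genes by 0.057 and 0.050. Small negative ratios turned positive with total-count scaling in Acat2 (0.016), Msmo1 (0.017), Nsdhl (0.050), Srebf1 (0.035), Srebf2 (0.051), Scap (0.048) and Nr1h3 (0.0018), and with spike-in scaling in Acat2 (0.0089), Msmo1 (0.011), Nsdhl (0.043), Srebf1 (0.029), Srebf2 (0.044) and Scap (0.042). None of these passed in the main comparison. In the second table Lrp1 turned to -0.0017 and the Npc2 to Npc1 log2 ratio to 0.10. Adding 1 TPM in place of 0.1 moved the Nr1h2 to Nr1h3 ratio to 14.0-fold, against 24.0-fold. That table raised the median levels to 41.7 (early synthesis), 39.7 (late synthesis), 44.3 (regulation), 113 (lipoprotein), 31.3 (efflux) and 21.3 TPM (turnover), and rescaling TPM over protein-coding genes gave 57.0, 51.7, 47.8, 182, 40.3 and 30.8 TPM for the same steps. All 37 genes stayed detected in each library alone, in the second table and after rescaling. Taking each library alone, the medians ranged from 28.8 to 29.5 TPM in early synthesis, 26.3 to 26.6 in late synthesis, 24.1 to 24.8 in regulation, 89.3 to 96.5 in the lipoprotein group, 19.7 to 21.6 in efflux and 15.1 to 16.4 in turnover. Leaving out a library leaves no difference between libraries. No paired analysis was possible because there is 1 group. The calls of the other lists under these settings were added after the data were seen. Depth limits Nr1h3, whose 25 counts in replicate 2 and 26 in replicate 1 give a counting SE of 0.40 on the log2 scale. The causes of these shifts were not tested.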
